A study of Mus musculus with 24 samples.

Results

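Transcription factors that mark blood stem cells and the early megakaryocyte path were followed through 3 sorted mouse bone marrow populations. The 9 genes were Hlf, Mecom, Hoxa9, Gfi1, Erg, Meis1, Fli1, Runx1 and Etv6, picked by symbol from 24438 genes with a symbol in the count table. RNA was measured by bulk sequencing of SmartSeq 2 libraries in 24 libraries, 3 in each of 8 groups. The populations were long-term haematopoietic stem cells (LTHSC), pre-megakaryocyte-erythroid progenitors (preMegE) and megakaryocyte progenitors (MkP), and the study set Jak2-mutant against Jak2 wild-type strains. The VF mice carried the V617F allele with a Cre driven by Vav1, the E12 mice an exon 12 allele with a Cre driven by Scl, and the KI mice a mouse Jak2 knock-in with the same Scl-driven Cre. All mice were C57BL/6N and shared a 5-day course of tamoxifen, with sorting after a further 12 weeks. Their age is not given in the sources used here. VF and E12 were sorted as LTHSC and MkP together with KI, while preMegE was analysed here for VF and KI. No label names the unmutated group; KI is set beside the others here as a shared comparison and is not taken as wild type. The Cre driver changes together with the V617F allele, and the effects of driver and allele cannot be told apart in VF against KI or E12. Nor do the labels say whether libraries of a group came from separate animals, so p-values measure the spread between these libraries, which may be technical.

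Blood stem cells keep their identity through a dense network of DNA-binding proteins that activate one another and hold back maturation genes. As cells move towards platelets, some of these factors are lost while ETS and RUNX proteins are kept and act with GATA1 on megakaryocyte genes. Hlf is a PAR-type leucine zipper factor that marks stem cells and holds them quiescent, and Mecom encodes the zinc finger protein EVI1, needed for stem cell self-renewal. Hoxa9 and Meis1 are homeodomain proteins that bind DNA together, Meis1 as a TALE cofactor. Gfi1 is a zinc finger repressor that restrains stem cell proliferation and favours the neutrophil path. Erg, Fli1 and Etv6 belong to the ETS family; Erg maintains stem cells, Fli1 activates megakaryocyte genes, and Etv6 is a repressor that bone marrow stem cells need. Runx1 is the DNA-binding part of core binding factor and is needed to form stem cells and to mature megakaryocytes.

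Since these factors include the ETS, RUNX and MEIS proteins themselves, the letters before the start of Hlf, Meis1, Hoxa9 and Runx1 are shown to let a reader see whether such motifs lie there. Hlf and Hoxa9 fell in both progenitor populations, and Meis1 and Runx1 rose in MkP relative to preMegE. Each line is the 250 bases before a RefSeq start in GRCm38.p6, read 5′ to 3′ on the gene's strand, which is the minus strand for all 4 genes. Capitals mark a match on either strand. The letters searched for ETS proteins were AGGAAG and, as a separate form, CCGGAA. For RUNX proteins they were TGTGGT. For the GATA family the search used AGATAA, and for the MEIS family it used TGACAG. The Hlf window lies at chr11:90390918-90391167, the Meis1 window at chr11:19018970-19019219, the Hoxa9 window at chr6:52227371-52227620 and the Runx1 window, at the second of its 2 listed starts, at chr16:92697330-92697579.
Hlf: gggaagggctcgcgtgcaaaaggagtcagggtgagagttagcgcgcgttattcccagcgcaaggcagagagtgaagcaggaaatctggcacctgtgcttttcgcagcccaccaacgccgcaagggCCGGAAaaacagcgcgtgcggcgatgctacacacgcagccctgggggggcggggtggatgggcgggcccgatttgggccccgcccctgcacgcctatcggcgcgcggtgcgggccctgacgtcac
Meis1: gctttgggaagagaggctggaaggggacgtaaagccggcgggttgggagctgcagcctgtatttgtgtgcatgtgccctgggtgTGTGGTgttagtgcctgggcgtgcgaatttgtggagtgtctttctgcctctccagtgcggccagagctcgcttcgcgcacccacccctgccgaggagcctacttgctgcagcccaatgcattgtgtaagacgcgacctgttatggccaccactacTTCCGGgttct
Hoxa9: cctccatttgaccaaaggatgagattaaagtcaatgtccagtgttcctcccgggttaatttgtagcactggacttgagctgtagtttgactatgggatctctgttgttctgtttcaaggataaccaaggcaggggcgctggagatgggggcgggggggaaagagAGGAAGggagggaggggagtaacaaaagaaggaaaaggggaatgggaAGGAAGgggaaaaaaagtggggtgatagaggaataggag
Runx1: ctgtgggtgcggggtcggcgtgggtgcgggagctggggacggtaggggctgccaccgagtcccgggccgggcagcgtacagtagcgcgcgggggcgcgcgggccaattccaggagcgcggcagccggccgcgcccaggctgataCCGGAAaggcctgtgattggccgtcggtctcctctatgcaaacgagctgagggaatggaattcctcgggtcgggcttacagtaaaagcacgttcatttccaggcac
The windows shown for Hlf and Runx1 each held 1 CCGGAA, and that of Hoxa9 held AGGAAG at 2 places. The Runx1 window not shown held AGGAAG from base -124 to -119. Every window shown holds a match, whereas the Etv6 window and some windows of Mecom, Gfi1 and Erg held none. Meis1 held a TGTGGT and, on the other strand, a CCGGAA. The Hlf match lay from base -125 to -120 before the start, and the Meis1 ETS match from -11 to -6. RefSeq windows were matched for 8 of the 9 genes, 13 windows in all, and Fli1 is named only. AGGAAG was in 4 of the 13 windows, against 29.5% of all 32851 promoter windows of this length. CCGGAA was in 3 of 13 (12% of all), TGACAG in 2 (15.9% of all), and TGTGGT and AGATAA in 1 each (14% and 9.99% of all). The motifs do not overlap one another in the windows shown, and a match describes the letters only, not binding.

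The libraries held 10357597 to 29688389 counts and 13237 to 16006 genes above 0. Levels are counts relative to the library total (CPM), scaled by TMM, a factor that evens out libraries dominated by a few genes. Markers were summed per library to check the labels. Of the LTHSC libraries, 8 of 9 held 697 to 981 CPM of 8 LTHSC markers, against 108 to 143 CPM in preMegE and 179 to 387 CPM in MkP, and the platelet receptor Gp6, 1 of 8 MkP markers, was at 0 in all LTHSC and preMegE libraries. Other sums did not follow the labels. PreMegE VF libraries held more of the neutrophil and monocyte markers (8757 to 19179 CPM) than of the erythroid and preMegE markers (2262 to 5912 CPM), and MkP KI 4 held less of the MkP markers (2963 CPM) than preMegE KI 1 (3445 CPM). LTHSC E12 4 went against its label. Its LTHSC markers summed to 325 CPM, and 10 neutrophil and monocyte markers summed to 27099 CPM, against 326 to 2432 CPM in the other LTHSC libraries; Mpo, the neutrophil peroxidase, alone reached 16069 CPM. TMM factors were 0.541 in preMegE KI 1, 0.576 in MkP KI 5 and 0.524 in MkP KI 6, against 0.922 to 1.23 elsewhere. The 8 MkP markers summed to 6960 and 16537 CPM in MkP KI 5 and 6. Jak2, the gene named in the genotypes, averaged 94.3 ± 9.45 CPM in LTHSC VF, 41.8 ± 20.5 CPM in LTHSC E12 and 55.1 ± 12.9 CPM in LTHSC KI (SD, n = 3 each), and its level does not show which allele a library holds.

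All 9 factors were detected in every library, though Gfi1 rested on as little as 1 read, in MkP KI 5. Per length of gene (RPKM, the CPM for each kilobase of the gene), Meis1 had the highest median in LTHSC at 136 RPKM, followed by Fli1 at 65.0, Hlf at 36.4 and Etv6 at 36.1 RPKM. Hoxa9 (31.1), Erg (23.2), Mecom (18.7) and Runx1 (14.0 RPKM) came next, and Gfi1 was lowest at 2.85 RPKM. In preMegE, Meis1 (43.7 RPKM) and Fli1 (37.7 RPKM) still led, whereas Hlf had a median of 2.36 RPKM and Mecom of 1.17 RPKM. In MkP the median order was led by Fli1 at 125 RPKM and Meis1 at 111 RPKM, with Etv6 at 38.6 and Runx1 at 19.8 RPKM. Hlf stood at 3.96 and Mecom at 2.82 RPKM there, seventh and eighth of the 9. The plot of levels by library shows the CPM of every library.

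**Figure D1:**
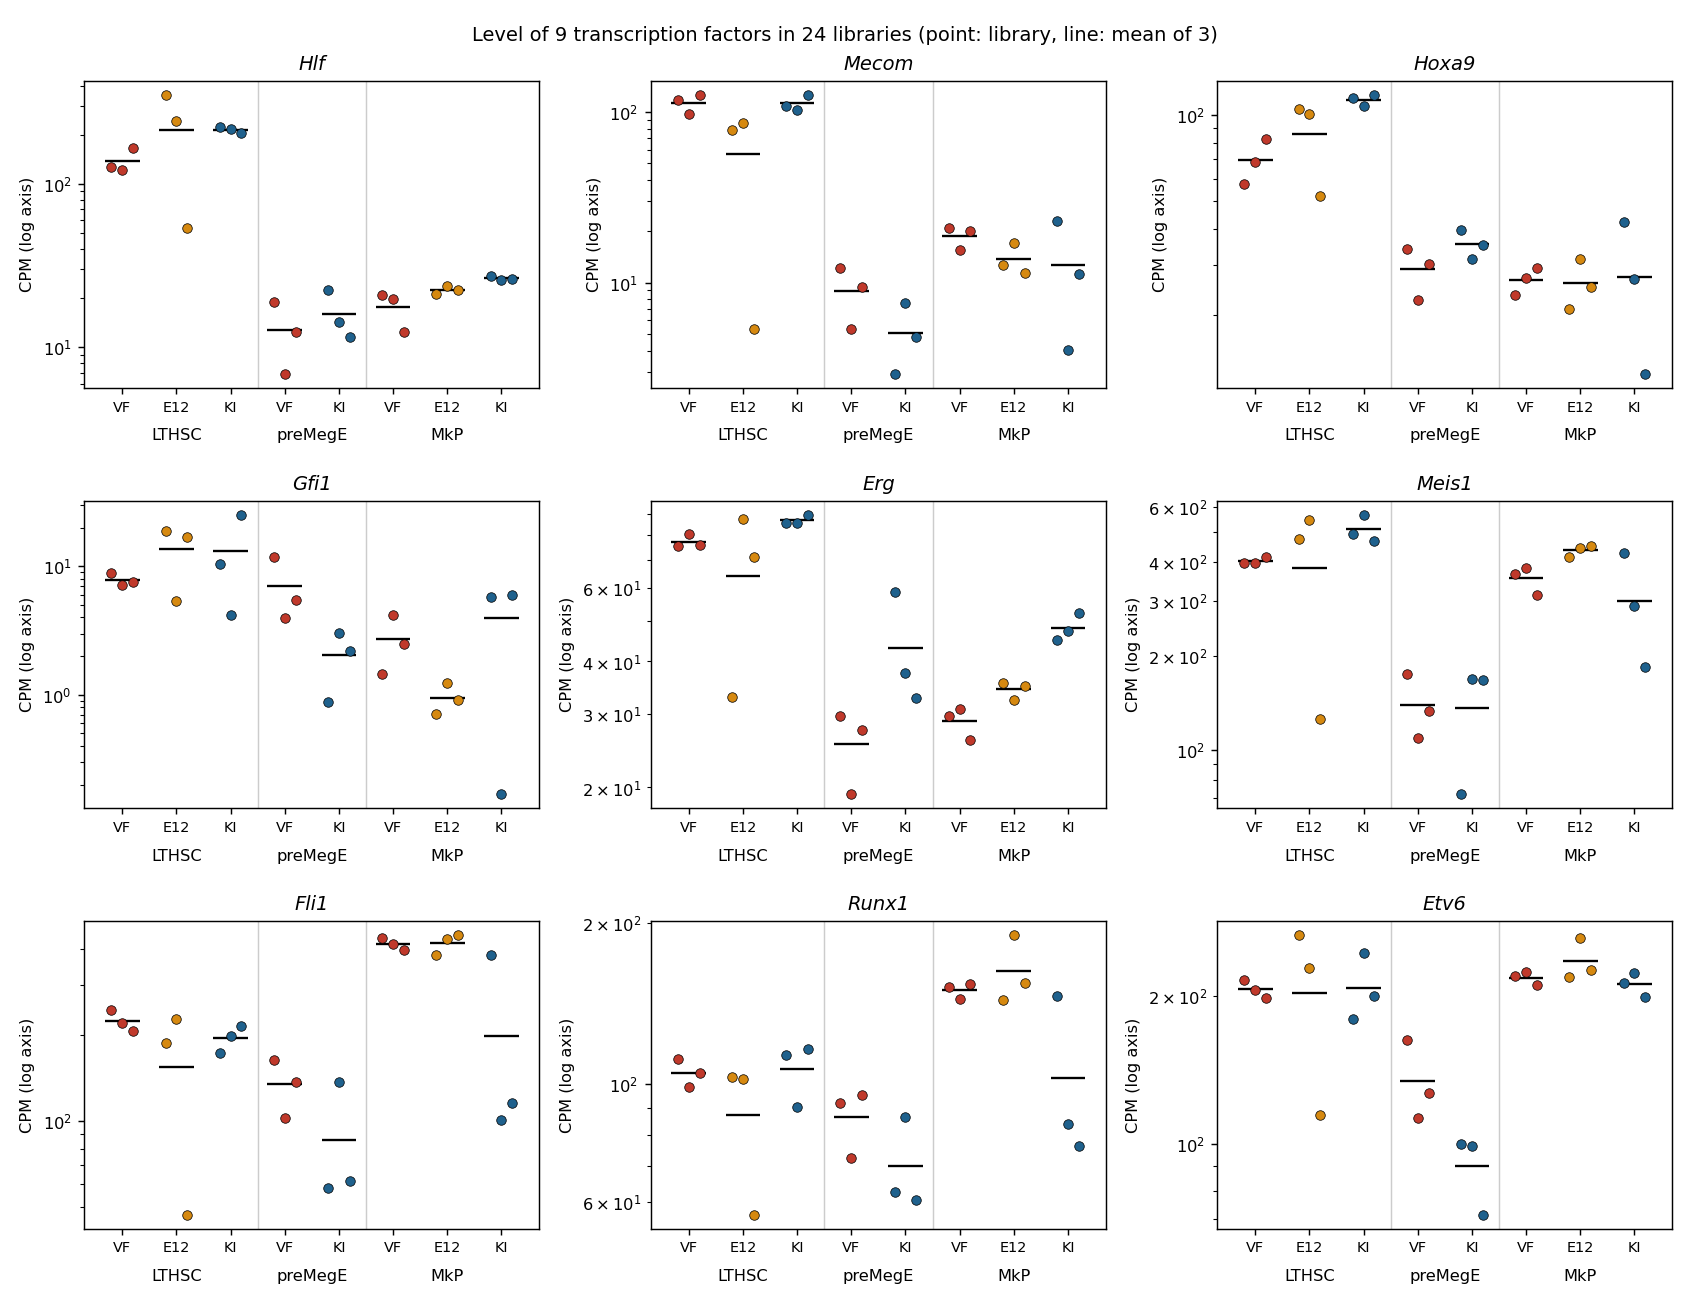
Level of each factor (vertical, CPM, log axis) in 24 libraries, grouped by population (LTHSC, preMegE, MkP) and, within it, by genotype (VF, E12, KI); points are libraries and black lines the mean of 3. Hlf lies between 54.1 and 351 CPM in LTHSC and between 12.4 and 27.5 CPM in MkP, while Fli1 is above 380 CPM in 7 of 9 MkP libraries and at 100.5 and 116 CPM in MkP KI 5 and 6.

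Hlf, Mecom, Hoxa9, Gfi1 and Erg were the factors of the stem cell end: they fell in preMegE and in MkP relative to LTHSC. For Gfi1 the fall in preMegE lay mainly in KI. A population difference was taken over the genotypes that both populations share, with edgeR's quasi-likelihood test and Benjamini-Hochberg adjustment over 14945 genes. In preMegE against LTHSC 8 of the 9 factors fell and none rose, where 19.4% of all genes tested fell and 21.4% rose. Neutrophil and monocyte markers summed to 2670 to 19179 CPM in preMegE, against 326 to 2432 CPM in 8 of 9 LTHSC libraries, and lymphoid markers to 178 to 1758 CPM in preMegE, against 28.4 to 185 CPM in those 8 (477 CPM in LTHSC E12 4); their part in the differences was not tested. In MkP against LTHSC 5 of the 9 fell and 2 rose, where 17.6% of genes fell and 17.1% rose. Neutrophil and monocyte markers summed to 1141 to 8347 CPM in MkP, a range that overlaps that of LTHSC. Mast cell, basophil and eosinophil markers summed to 63.9 to 1025 CPM in MkP, against 4.99 to 33.9 CPM in 8 of 9 LTHSC libraries. In LTHSC E12 4 they reached 1002 CPM. The part of these markers in the MkP differences was not tested. The median difference of the 9 was -1.40 (log2) in preMegE and -1.06 in MkP, against -0.01 and 0.01 over all genes tested. The balance over all genes depends on the scaling: 3196 rose and 2904 fell in preMegE and 2554 rose and 2634 fell in MkP, where without scaling factors 1702 rose and 3736 fell in preMegE and 1208 rose and 3186 fell in MkP. The median of all genes then moved by -0.40 in preMegE and -0.29 in MkP. In sorted bulk samples, fewer cells of a type and less RNA per cell cannot be told apart.

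Hlf changed most clearly. It lay between 54.1 and 351 CPM in 9 LTHSC libraries (median 206), between 6.84 and 22.5 CPM in 6 preMegE libraries (median 13.4), and between 12.4 and 27.5 CPM in 9 MkP libraries (median 22.4). Every preMegE and every MkP library was below every LTHSC library, LTHSC E12 4 included. The log2 difference was -3.60 in preMegE (SE 0.34, adjusted p = 2.31e-07) and -3.08 in MkP (SE 0.27, adjusted p = 2.62e-08) relative to LTHSC, by edgeR. Hlf was thus at 0.0918 of the LTHSC mean in preMegE VF and 0.0748 in preMegE KI, and at 0.128, 0.104 and 0.123 of it in MkP VF, E12 and KI.

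Mecom fell as steeply. Its levels were 5.36 to 126 CPM in LTHSC (median 103), 2.90 to 12.2 CPM in preMegE (median 6.46) and 4.02 to 22.9 CPM in MkP (median 15.5). The lowest LTHSC value, 5.36 CPM, was that of LTHSC E12 4, and the other LTHSC libraries held at least 78.6 CPM. The log2 difference from LTHSC was -4.05 in preMegE (SE 0.49, adjusted p = 3.75e-06) and -2.58 in MkP (SE 0.37, adjusted p = 1.96e-05), by edgeR. Mecom in MkP was estimated above preMegE by 1.20 (SE 0.44, adjusted p = 0.107), and this passed the threshold without LTHSC E12 4 (1.20, adjusted p = 0.0146), without the 4 libraries of lowest TMM factor (1.49, adjusted p = 0.000161) and in DESeq2 (1.19, adjusted p = 0.0489). Without those 4 libraries Hlf also rose in MkP against preMegE (0.80, adjusted p = 0.0266), where the value with all libraries was 0.61 (SE 0.31, adjusted p = 0.277).

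Hoxa9 lost ground once and kept the lower level. It ranged over 52.1 to 117 CPM in LTHSC, 22.6 to 39.6 CPM in preMegE and 12.5 to 42.3 CPM in MkP, with no overlap between LTHSC and the other populations. Its log2 difference from LTHSC was -1.47 in preMegE (SE 0.24, adjusted p = 9.98e-05) and -1.72 in MkP (SE 0.20, adjusted p = 1.09e-06), by edgeR. Between MkP and preMegE it differed by -0.25 (SE 0.24, adjusted p = 0.626). Erg went the same way, with a median of 80.5 CPM in LTHSC, 31.2 CPM in preMegE and 35.0 CPM in MkP. Its log2 difference from LTHSC was -1.31 in preMegE (SE 0.21, adjusted p = 6.93e-05) and -1.06 in MkP (SE 0.17, adjusted p = 5.85e-05). LTHSC E12 11, at 32.9 CPM, reached down into the range of the MkP libraries for Erg.

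Gfi1 was low everywhere. It lay at 4.19 to 25.1 CPM in LTHSC, 0.883 to 11.8 CPM in preMegE and 0.168 to 5.99 CPM in MkP, and the populations overlapped. It fell in MkP by 2.36 on the log2 scale (SE 0.46, adjusted p = 0.000524, edgeR). In preMegE the difference was -1.40 (SE 0.55, adjusted p = 0.0441, edgeR). Its means were 7.07 CPM in preMegE VF against 7.85 CPM in LTHSC VF, with overlap. In KI they were 2.04 CPM in preMegE against 13.2 CPM in LTHSC. The preMegE call was lost without any 1 of 13 of the 24 libraries, with adjusted p between 0.0506 and 0.175. These were LTHSC KI 1 and 3, LTHSC VF 1, 2 and 3, preMegE KI 1 and 3, preMegE VF 2 and 3, MkP E12 2, 4 and 5, and MkP VF 3; the estimate was weakest, at -0.98, without LTHSC KI 3.

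Meis1, Fli1, Runx1 and Etv6 formed the other pattern over VF and KI together: they were low in preMegE and higher in MkP. All 4 rose in MkP relative to preMegE, and none of the 9 fell, where 3.28% of all genes tested rose and 4.28% fell; the median difference of the 9 was 0.67 (log2), against 0.00 over all genes. Without scaling factors Etv6 was the only one of the 4 past the threshold. Within KI alone, MkP and preMegE libraries overlapped for Fli1 (means of 199 and 85.8 CPM) and Runx1 (102 and 70.0 CPM). Of the other factors, Hlf, Mecom and Erg also had higher means in MkP in both genotypes. Hlf did so without overlap in KI, and Mecom in VF. Hoxa9 had lower means in both, and Gfi1 went down in VF and up in KI. Meis1 spanned 126 to 567 CPM in LTHSC (median 469), 71.9 to 175 CPM in preMegE (median 151) and 184 to 451 CPM in MkP (median 383). Every MkP library held more Meis1 than every preMegE library. It rose in MkP by 1.25 (log2, SE 0.29, adjusted p = 0.0101, edgeR) relative to preMegE and fell in preMegE by 1.72 (SE 0.30, adjusted p = 0.000176) relative to LTHSC. Between MkP and LTHSC it differed by -0.25 (SE 0.24, adjusted p = 0.442).

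Per length, Fli1 had the highest median over the 9 MkP libraries, but its order with Meis1 differed by genotype. Fli1 averaged 131 ± 6.02 RPKM in MkP VF, 132 ± 11.0 in MkP E12 and 62.6 ± 49.6 in MkP KI. Meis1 averaged 103 ± 10.7, 127 ± 5.29 and 87.5 ± 35.8 RPKM there (SD, n = 3 each). Fli1 was above Meis1 in every MkP VF library and below it in every MkP KI library, and the MkP E12 libraries went both ways. Fli1 ranged over 47.1 to 244 CPM in LTHSC (median 206), 58.5 to 164 CPM in preMegE (median 119.6) and 100.5 to 446 CPM in MkP (median 397). The rise in MkP relative to preMegE was 1.42 (log2, SE 0.34, adjusted p = 0.0117, edgeR), and that relative to LTHSC 0.79 (SE 0.28, adjusted p = 0.0298). The difference of preMegE from LTHSC was -0.96 (SE 0.34, adjusted p = 0.0279). The call against LTHSC in MkP was lost without MkP KI 4 (0.49, adjusted p = 0.0918), LTHSC KI 1 (0.76, 0.0551), LTHSC VF 2 (0.79, 0.0504) or LTHSC VF 3 (0.77, 0.0555), and without scaling factors (0.55, 0.285). The preMegE call was lost without LTHSC KI 3 (-0.92, adjusted p = 0.0538), LTHSC VF 1 (-0.93, 0.0526), preMegE KI 1 (-0.85, 0.0639), preMegE KI 3 (-0.85, 0.0679) or preMegE VF 2 (-0.88, 0.0708).

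Runx1 varied least, with medians of 103 CPM in LTHSC, 79.7 CPM in preMegE and 146 CPM in MkP. Its lowest and highest group means differed 2.32-fold, against 22.3-fold for Mecom and 16.9-fold for Hlf. It rose in MkP by 0.67 (log2, SE 0.19, adjusted p = 0.0328) relative to preMegE and by 0.45 (SE 0.16, adjusted p = 0.0288) relative to LTHSC, by edgeR. Against preMegE the call was lost without any 1 of MkP KI 4, MkP VF 1, 2 or 3, preMegE KI 3, or preMegE VF 2 or 3, with adjusted p of 0.0566 to 0.0941. Against LTHSC it was lost without any 1 of MkP KI 4, MkP E12 4, MkP VF 3, LTHSC KI 2, or LTHSC VF 2 or 3, with adjusted p of 0.0503 to 0.0661, and without scaling factors (0.17, adjusted p = 0.65). In preMegE it differed from LTHSC by -0.44 (SE 0.19, adjusted p = 0.0696), and this passed without LTHSC E12 4 (adjusted p = 0.0393), preMegE KI 2 (0.0413) or MkP KI 4 (0.0374). It also passed in DESeq2 (-0.45, adjusted p = 0.0295), with RLE scaling (-0.45, 0.046), without scaling factors (-0.82, 0.0409) and without the 4 libraries of lowest TMM factor (-0.46, 0.00443).

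Etv6 held nearly the same level in LTHSC and MkP and a lower one in preMegE. It lay at 114 to 267 CPM in LTHSC (median 206), 71.6 to 163 CPM in preMegE (median 106) and 199.7 to 263 CPM in MkP (median 219.6). The MkP libraries kept within a narrow range, all above every preMegE library. Etv6 rose in MkP by 0.97 (log2, SE 0.19, adjusted p = 0.00246, edgeR) relative to preMegE and fell in preMegE by 0.92 (SE 0.19, adjusted p = 0.00084) relative to LTHSC. The difference between MkP and LTHSC was 0.11 (SE 0.15, adjusted p = 0.637).

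**Figure D2:**
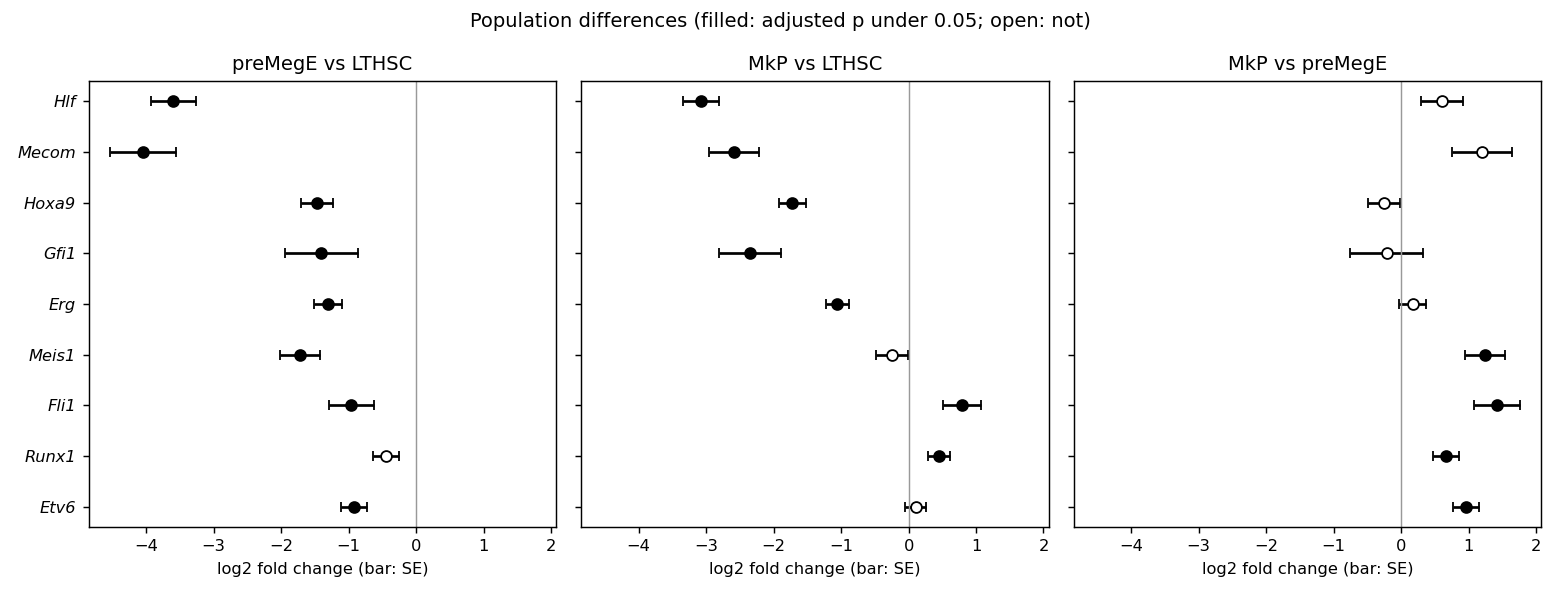
Log2 fold change of each factor (horizontal; bars are the standard error) in preMegE against LTHSC, MkP against LTHSC and MkP against preMegE; filled points passed an adjusted p of 0.05 in edgeR's quasi-likelihood test. All 9 points are below 0 in preMegE against LTHSC, and in MkP against preMegE Meis1, Fli1, Runx1 and Etv6 lie above 0 between 0.67 and 1.42.

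Within single genotypes the libraries of 2 populations could be set side by side, 3 against 3. In preMegE VF, 8 of the 9 factors lay below LTHSC VF with no overlap, all but Gfi1, and none above, where 27% of all genes tested lay below and 23.6% above. In preMegE KI all 9 lay below LTHSC KI, where 23.1% of genes lay below and 21.5% above. In MkP VF, 6 factors were lower than in LTHSC VF without overlap (25% of genes) and 2 higher (27.1%). In MkP E12, 3 were lower (12.7%) and 2 higher (14%). In MkP KI, 5 were lower (19.9%) and none higher (16.4%). Fli1 and Runx1 were the 2 higher ones in VF and in E12. Fli1 in MkP was at 1.86 times its LTHSC mean in VF, 2.73 times in E12 and 1.02 times in KI. The E12 mean in LTHSC includes LTHSC E12 4 at 47.1 CPM, and the KI mean in MkP includes MkP KI 5 and 6. Over the libraries of the genotypes compared, 7 factors in preMegE were below LTHSC without overlap (13.1% of genes tested) and none was above (12.8%). In MkP 2 were below LTHSC (3.35%; Hlf and Hoxa9) and none above (1.4%). In MkP 2 were above preMegE (1.38%; Meis1 and Etv6) and none below (2.03%).

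Ordered by the means of the 8 groups, Hlf was highest in LTHSC E12, LTHSC KI and LTHSC VF, then in the 3 MkP groups, then in preMegE KI and preMegE VF. Of the 7 steps between neighbours in that order, 4 had libraries that did not overlap. LTHSC KI stood above LTHSC VF and LTHSC VF above MkP KI without overlap. Meis1 ran from LTHSC KI through MkP E12, LTHSC VF, LTHSC E12, MkP VF and MkP KI to preMegE VF and preMegE KI, with 3 steps separated. Mecom was highest in LTHSC VF, LTHSC KI and LTHSC E12, followed by MkP VF, MkP E12, MkP KI, preMegE VF and preMegE KI, with a gap only between LTHSC KI and LTHSC E12. Hoxa9 ran LTHSC KI, LTHSC E12, LTHSC VF, preMegE KI, preMegE VF, MkP KI, MkP VF and MkP E12, with 2 gaps, below LTHSC KI and below LTHSC VF. For Erg the order was LTHSC KI, LTHSC VF, LTHSC E12, MkP KI, preMegE KI, MkP E12, MkP VF and preMegE VF, again with 2 gaps.

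Fli1, Runx1 and Etv6 all had MkP E12 and MkP VF as their top groups and preMegE VF and preMegE KI as their bottom groups. Each had 1 gap. It lay below MkP VF for Fli1 (416 ± 19.1 CPM in MkP VF, against 223 ± 18.9 CPM in LTHSC VF) and for Runx1 (150.0 ± 4.93 CPM in MkP VF, against 107 ± 14.1 CPM in LTHSC KI; SD, n = 3 each). For Etv6 it separated preMegE VF (134 ± 25.6 CPM) from preMegE KI (90.1 ± 16.0 CPM). Between those ends Fli1 ran LTHSC VF, MkP KI, LTHSC KI and LTHSC E12, Runx1 ran LTHSC KI, LTHSC VF, MkP KI and LTHSC E12, and Etv6 ran MkP KI, LTHSC KI, LTHSC VF and LTHSC E12. Gfi1 had no gap between any neighbours, from LTHSC E12 at 13.7 ± 7.26 CPM to MkP E12 at 0.950 ± 0.260 CPM.

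**Figure D3:**
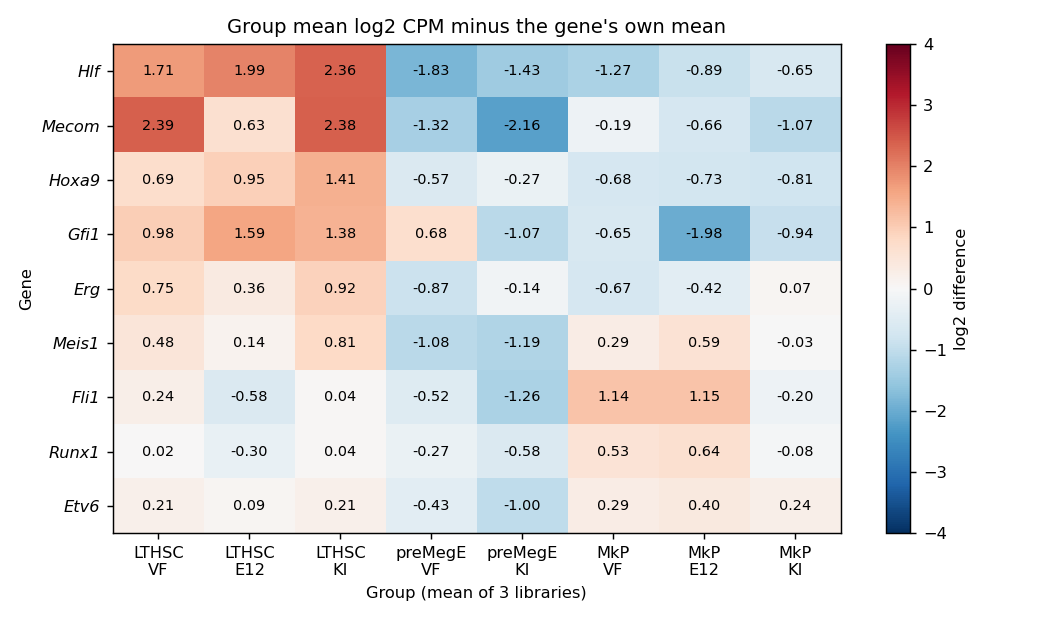
Group mean of log2 CPM minus the gene's own mean over the 8 groups (colour and number, log2 units) for the 9 factors (rows) in LTHSC, preMegE and MkP of each genotype (columns, mean of 3 libraries). Hlf and Mecom are above their mean in all 3 LTHSC groups, while Fli1 is at 1.14 in MkP VF and 1.15 in MkP E12 but at -0.20 in MkP KI.

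The likeness of 2 profiles was measured as the root mean square difference between their centred log2 group means over the 8 groups, so smaller is closer. Among the 9 factors the closest pairs were Runx1 and Etv6 (0.285), Meis1 and Etv6 (0.356), Fli1 and Runx1 (0.400) and Hoxa9 and Erg (0.441). Hlf and Mecom, with the widest swings, were 0.748 apart. Among 10406 other genes, the closest to Hlf were Bdh2 (0.317), Nhsl1 (0.338) and Zfp467 (0.340). Those closest to Mecom were Cav2 (0.303), Triqk (0.343) and Tead2 (0.356). Hoxa9 was closest to Bbs4 (0.187), Zbtb4 (0.195) and Sox6 (0.196), Erg to Crebrf (0.179), Letm2 (0.193) and Akr1c13 (0.195), and Gfi1 to Ms4a6b (0.336), Kcnip3 (0.364) and Lcp1 (0.384). Among the closest to Meis1 were Msl3l2 (0.147) and Phlpp1 (0.197), and Fli1 was closest to Srgap3 (0.208), Erbin (0.225) and Tanc1 (0.232). Runx1 was closest to Hipk1 (0.0848), Ptpn12 (0.108) and Spast (0.108), and Etv6 to Arl5a (0.110), Lrig2 (0.127) and Kctd12 (0.133).

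A list of 15 other stem cell factors was set beside the 9. Of these, 12 fell and none rose in preMegE against LTHSC (19.4% and 21.4% of all genes), and 10 fell and 1 rose in MkP against LTHSC (17.6% and 17.1%). In MkP against preMegE 4 rose and none fell (3.28% and 4.28%). Nkx2-3, a homeobox gene, fell in MkP by 3.23 (log2, adjusted p = 2.48e-09), Mllt3, which sustains stem cell self-renewal, by 2.34 (3.33e-06), Gata3 by 2.01 (8.64e-06) and Prdm16, a relative of Mecom, by 1.88 (1.66e-06), all by edgeR. The median of the 15 was -1.06 in MkP and -2.05 in preMegE (log2), against 0.01 and -0.01 over all genes tested.

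The heptad is the set of 7 factors that bind blood stem cell genes together, namely Erg, Fli1, Runx1, Gata2, Tal1, Lmo2 and Lyl1; the first 3 are among the 9 factors and are counted here again. In MkP against LTHSC, 4 of the 7 rose (Fli1, Tal1, Gata2 and Runx1) and 2 fell (Erg and Lyl1), where 17.1% of all genes rose and 17.6% fell. In preMegE against LTHSC 5 fell and none rose (19.4% and 21.4% of genes), and in MkP against preMegE 3 rose and none fell (3.28% and 4.28%). The median of the 7 was 0.45 (log2) in MkP and -0.77 in preMegE, each against LTHSC. Gata2 was higher in MkP than in LTHSC by 0.64 (SE 0.24, adjusted p = 0.0431) and lower in preMegE than in LTHSC by 0.77 (SE 0.29, adjusted p = 0.0418). Of 15 megakaryocyte and erythroid factors, 9 rose and 1 fell in MkP against LTHSC (17.1% and 17.6% of genes), and 4 rose and 3 fell in preMegE, shares close to the 21.4% and 19.4% of all genes. Their median was 0.50 in MkP and 0.31 in preMegE. Gata1, the master factor of both lineages, rose in MkP by 2.17 (adjusted p = 7.48e-07) and in preMegE by 3.09 (adjusted p = 4.15e-07). Klf1, the erythroid zinc finger factor, was lower in MkP than in preMegE by 3.14 (SE 0.36, adjusted p = 2.44e-05). Against preMegE, 2 of the 15 rose in MkP (Zfpm1 and Gata2) and Klf1 alone fell (3.28% and 4.28% of genes). Gata2 is counted both here and in the heptad.

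Among 19 partners and relatives of the 9 factors, 4 rose and 4 fell in MkP against LTHSC, shares close to the 17.1% and 17.6% of all genes, and their median was 0.11 (log2). Within the Runx family Runx3 rose in MkP by 1.45 (SE 0.19, adjusted p = 7.73e-06) and Runx2 fell by 1.17 (SE 0.13, adjusted p = 7.42e-07), beside the rise of Runx1 by 0.45. Gfi1b, the relative of Gfi1 that acts in megakaryocytes and red cells, rose by 1.03 (SE 0.23, adjusted p = 0.00133), whereas Gfi1 fell by 2.36. In preMegE 2 of the 19 rose and 6 fell (21.4% and 19.4% of genes). Among those that fell was Prdm16, by 2.86 (SE 0.28, adjusted p = 3.95e-07, edgeR), which is also in the list of other stem cell factors above. In MkP against preMegE 4 of the 19 rose and none fell (3.28% and 4.28% of genes). Of 15 known target genes of the factors that could be tested, 6 rose and 3 fell in MkP against LTHSC (17.1% and 17.6% of genes). In preMegE 4 rose and 4 fell, close to the shares of all genes (21.4% and 19.4%), and in MkP against preMegE 6 rose and 1 fell (3.28% and 4.28%). Their median was -0.21 in MkP against LTHSC and 0.96 in MkP against preMegE. Pf4 and Itga2b, platelet genes that Fli1 and Runx1 bind, rose in MkP against LTHSC by 5.99 (SE 0.58, adjusted p = 1.27e-07) and 3.00 (SE 0.23, adjusted p = 2.66e-09). Itga2b and Pf4 also served as MkP markers above.

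Genotypes were compared within a population in a fit over all its libraries, and none of the 9 factors passed an adjusted p of 0.05 in any of the 7 comparisons. Calls were rare among all genes too. In LTHSC, 0.0849% of genes were called for VF against KI, 0.0354% for E12 against KI and 0.0283% for VF against E12. In preMegE 0.0151% were called for VF against KI, and in MkP 0% in each of the 3 comparisons. At an unadjusted p under 0.05 by edgeR, 1 factor passed for VF against KI in LTHSC (Hoxa9; 8.15% of genes), preMegE (Gfi1; 6.4%) and MkP (Erg; 25.9%). For E12 against KI in MkP, 2 passed (Fli1 and Runx1; 28.6% of genes). None passed for E12 against KI in LTHSC (14.2%), VF against E12 in LTHSC (10.8%) or VF against E12 in MkP (1.23%). In MkP DESeq2 called 2 factors in VF against KI (18.9% of genes) and 1 in E12 against KI (21.1% of genes), and it called none in the other 5 comparisons. Leaving out 1 library changed this picture in LTHSC and in MkP.

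In LTHSC, Hoxa9 and Hlf were lower in every VF library than in every KI library. Hoxa9 stood at 57.3, 68.7 and 82.3 CPM in VF libraries and at 104, 100.4 and 52.1 CPM in E12 libraries 11, 2 and 4, against 114, 108 and 117 CPM in KI libraries. The E12 libraries 11 and 2 lay between VF and KI, and E12 4 lay below both. The VF difference from KI was -0.70 (log2, SE 0.28, unadjusted p = 0.0297, adjusted p = 0.53, edgeR). Without LTHSC E12 4 it was -0.70 (SE 0.15, adjusted p = 0.0434), where 2.27% of genes were called. With VF and KI libraries alone it was -0.70 (adjusted p = 0.0272), where 6.89% of genes were called. Marker sums also differed without overlap between VF and KI, and their part in the levels of Hoxa9, Hlf and the other factors was not tested. Neutrophil and monocyte markers summed to 326 to 470 CPM in VF and 745 to 2432 CPM in KI, and lymphoid markers to 28.4 to 54.2 CPM in VF and 59.4 to 89.2 CPM in KI. LTHSC markers summed to 869 to 981 CPM in VF and 697 to 713 CPM in KI, and erythroid and preMegE markers to 312 to 379 CPM in VF and 206 to 230.4 CPM in KI.

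Hlf was at 127, 122 and 167 CPM in VF, at 351, 242 and 54.1 CPM in E12 and at 224, 216 and 206 CPM in KI libraries. The VF libraries were all below KI, and the E12 libraries lay on both sides of KI. The VF difference was -0.64 (SE 0.50, adjusted p = 0.848, edgeR), and -0.63 (SE 0.17, adjusted p = 0.0771) without E12 4. It passed with VF and KI libraries alone (-0.64, adjusted p = 0.0282). Meis1 stood at 397, 399 and 414 CPM in VF, against 495, 567 and 469 CPM in KI, and Erg at 75.4, 80.5 and 75.8 CPM in VF, against 85.7, 85.6 and 89.5 CPM in KI. These 4 of 9 factors were lower in VF without overlap, and none was higher; over all genes 13.5% were lower and 17.4% higher in that way. For Mecom, Fli1, Runx1 and Etv6 the estimated VF differences lay between -0.03 and 0.19, each within its standard error in the fit with E12. With VF and KI libraries alone, Fli1 was at 0.19 (SE 0.12, adjusted p = 0.362, edgeR), and Mecom, Runx1 and Etv6 stayed within their standard errors.

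In E12 LTHSC no factor was called, and 1 library stood far below the others for several of them. Mecom and Hoxa9 were lower without overlap (7.65% of genes) and none was higher (8.5%). Mecom was at 78.6, 85.9 and 5.36 CPM in E12 libraries 11, 2 and 4, against 109, 103 and 126 CPM in KI. All 3 were below KI; the difference was -0.99 (log2, SE 0.68, adjusted p = 0.512, edgeR), and -0.45 (SE 0.16, adjusted p = 0.256) without E12 4. Meis1 and Fli1 showed the same library apart, at 126 and 47.1 CPM in E12 4, where the other E12 libraries held 474 and 547 CPM of Meis1 and 188 and 227 CPM of Fli1. Neutrophil markers at 27099 CPM moved with these low values in E12 4, and their part in them was not tested. Without E12 4 the means of the remaining 2 E12 libraries were 511 CPM for Meis1, 207 CPM for Fli1, 103 CPM for Runx1 and 247 CPM for Etv6, against 510.2, 195, 107 and 208 CPM in KI. Hlf then averaged 296 CPM in E12, against 215 CPM in KI (0.46, SE 0.18, adjusted p = 0.295). For VF against E12 the Hlf difference was -0.64 (SE 0.50, adjusted p = 0.578), and -1.09 (SE 0.18, adjusted p = 0.0753) without E12 4. Mecom alone was separated between VF and E12, higher in VF by an estimated 1.00 (SE 0.68, adjusted p = 0.532) and by 0.46 (SE 0.16, adjusted p = 0.431) without E12 4, where 11.5% of genes were higher and 9.75% lower in that way.

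In preMegE, Gfi1 and Etv6 were higher in every VF library than in every KI library, and Erg was lower. Gfi1 stood at 11.8, 3.96 and 5.44 CPM in VF, against 0.883, 3.05 and 2.20 CPM in KI. The lowest VF and highest KI values were close, and the difference was 1.75 (log2, SE 0.66, unadjusted p = 0.0241, adjusted p = 0.652, edgeR). Neutrophil and monocyte markers moved the same way, all 10 of them above 10 CPM in both groups, with sums of 8757 to 19179 CPM in VF and 2670 to 3899 CPM in KI. Gfi1 is itself active in that lineage, and the part of these markers in its level was not tested. Erg was at 29.7, 19.3 and 27.4 CPM in VF, against 58.8, 37.5 and 32.8 CPM in KI (-0.76, SE 0.37, adjusted p = 0.652). Etv6 was at 163, 113 and 127 CPM in VF, against 99.7, 99.0 and 71.6 CPM in KI (0.58, SE 0.34, adjusted p = 0.652). So 2 factors were higher and 1 lower without overlap, against 6.39% and 5.74% of all genes. PreMegE KI 1, of low TMM factor, also held 1758 CPM of 8 lymphoid markers, where the other preMegE libraries held 178 to 770.4 CPM. Here the replicate numbers were taken to pair the libraries, from the correlation of their deviations and not from a label. With the numbers as a block no factor passed either. The count of all genes called was then 5 (0.0377%), against 2 without the block.

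In MkP the KI libraries differed among themselves more than the genotypes did for several factors. Fli1 stood at 435, 414 and 397 CPM in VF and at 380.2, 434 and 446 CPM in E12, against 381, 100.5 and 116 CPM in KI libraries 4, 5 and 6. MkP KI 4 was level with the E12 libraries, while KI 5 and 6 held at most 116 CPM. The difference was 1.06 for VF (log2, SE 0.48, adjusted p = 0.194, edgeR) and 1.08 for E12 (SE 0.48, adjusted p = 0.171). Without MkP KI 4 it was 1.95 for VF (SE 0.17, adjusted p = 3.1e-06) and 1.96 for E12 (SE 0.17, adjusted p = 2.69e-06). Without the 4 libraries of lowest TMM factor, which leaves KI 4 as the lone KI library, it was 0.10 in both (adjusted p = 0.854 and 0.852), and a lone library is assumed to vary like the other groups.

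Runx1 and Meis1 split in the same way. Runx1 was at 152, 144 and 154 CPM in VF and 143, 189.9 and 155 CPM in E12, against 146, 84.2 and 76.5 CPM in KI. Meis1 was at 368, 383 and 313 CPM in VF and 416, 444 and 451 CPM in E12, against 429.5, 289 and 184 CPM in KI. In both genes KI 4 sat among or near the VF and E12 libraries, above KI 5 and 6. Without KI 4, Runx1 rose in VF by 0.91 (SE 0.18, adjusted p = 0.00112) and in E12 by 1.02 (SE 0.18, adjusted p = 0.000477), and Meis1 in VF by 0.59 (SE 0.20, adjusted p = 0.0311) and in E12 by 0.89 (SE 0.21, adjusted p = 0.00356). With KI 4 as the lone KI library, Runx1 was at 0.01 in VF (adjusted p = 0.991) and 0.11 in E12 (0.868), and Meis1 at -0.30 (0.508) and -0.014 (0.99). Mecom, at 21.0, 15.5 and 20.0 CPM in VF, against 22.9, 4.02 and 11.2 CPM in KI, rose in VF by 1.27 (SE 0.42, adjusted p = 0.026) without KI 4 and was at -0.30 (adjusted p = 0.79) with KI 4 alone. In all, 5 of 9 factors passed for VF and 4 for E12 without KI 4, where 50.4% and 51.3% of all genes tested passed, so the factors' share is close to the background. The MkP marker sum (6960 and 16537 CPM in KI 5 and 6, 2963 CPM in KI 4) and the mast cell, basophil and eosinophil sum (1025, 1021 and 296 CPM) moved with the same split, and their part in it was not tested.

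After TMM scaling, Erg in MkP showed no such split among the KI libraries. It stood at 29.6, 30.8 and 25.9 CPM in VF and 35.5, 32.5 and 35.0 CPM in E12, against 45.0, 47.3 and 52.3 CPM in KI. All VF and all E12 libraries were below all KI libraries, and VF was below E12. The difference was -0.74 for VF (SE 0.22, unadjusted p = 0.00714, adjusted p = 0.0894, edgeR) and -0.49 for E12 (SE 0.22, adjusted p = 0.176), and so neither was called. Without KI 4 both passed, at -0.79 (adjusted p = 0.00651) for VF and -0.54 (adjusted p = 0.0433) for E12, and in DESeq2 they were -0.88 (adjusted p = 0.00105) and -0.63 (adjusted p = 0.021). Without scaling factors the VF difference was -0.21 (SE 0.36, adjusted p = 0.709), and that of E12 was 0.05 (SE 0.36, adjusted p = 0.941), the other direction. Hlf was at 21.0, 19.8 and 12.4 CPM in VF and 21.2, 23.8 and 22.4 CPM in E12, against 27.5, 26.0 and 26.2 CPM in KI, again without overlap. Its VF difference was -0.58 (SE 0.28, adjusted p = 0.218), called by DESeq2 (-0.72, adjusted p = 0.0443) and at -0.087 (SE 0.42, adjusted p = 0.903) without scaling factors. MkP KI 4, 5 and 6 had TMM factors of 1.12, 0.576 and 0.524. Their raw Erg counts were 1502, 282 and 647 and their Hlf counts 918, 155 and 324, of totals of 29688389, 10357597 and 23565823. Relative to these totals alone, KI 4 stood above KI 5 and 6 for both genes, and neither VF nor E12 was separated from KI. After TMM scaling, 2 factors (Erg and Hlf) were lower without overlap in each of VF and E12, where 7% and 7.44% of all genes were. Fli1 alone was higher in VF (13.3% of genes), and none was higher in E12 (16.1%).

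Between VF and E12 in MkP the estimates lay between -0.30 and 0.46 for Meis1, Mecom, Hoxa9, Fli1, Runx1 and Etv6. Each was within its standard error in the fit that includes the KI libraries. With VF and E12 libraries alone, Meis1 was at -0.30 (SE 0.11, unadjusted p = 0.0176, adjusted p = 0.512, edgeR). Mecom was then at 0.46 (SE 0.23, adjusted p = 0.619) and Etv6 at -0.114 (SE 0.106), while Hoxa9, Fli1 and Runx1 stayed within their standard errors. Gfi1 alone was higher in VF than in E12 without overlap (6.61% of genes), and Hlf, Meis1 and Erg were lower (8.15%). Neutrophil and monocyte markers moved the same way as Gfi1, with sums of 3694 to 8347 CPM in VF and 1141 to 3218 CPM in E12. Their part in its level was not tested. Gfi1 was at 1.44, 4.17 and 2.49 CPM in VF, against 0.714, 1.23 and 0.906 CPM in E12 (1.50, SE 0.95, adjusted p = 1). Against KI, at 5.81, 0.168 and 5.99 CPM, the E12 difference of Gfi1 was -2.09 (SE 0.97, adjusted p = 0.182), and the KI value of 0.168 CPM is the single read in MkP KI 5. Hoxa9 was at 23.5, 27.0 and 29.3 CPM in VF and 21.0, 31.4 and 25.2 CPM in E12, against 42.3, 26.8 and 12.5 CPM in KI, and Etv6 at 219.6, 224 and 211 CPM in VF and 219, 263 and 226 CPM in E12, against 213, 223 and 199.7 CPM in KI. For both genes the KI range overlapped the others.

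**Figure D4:**
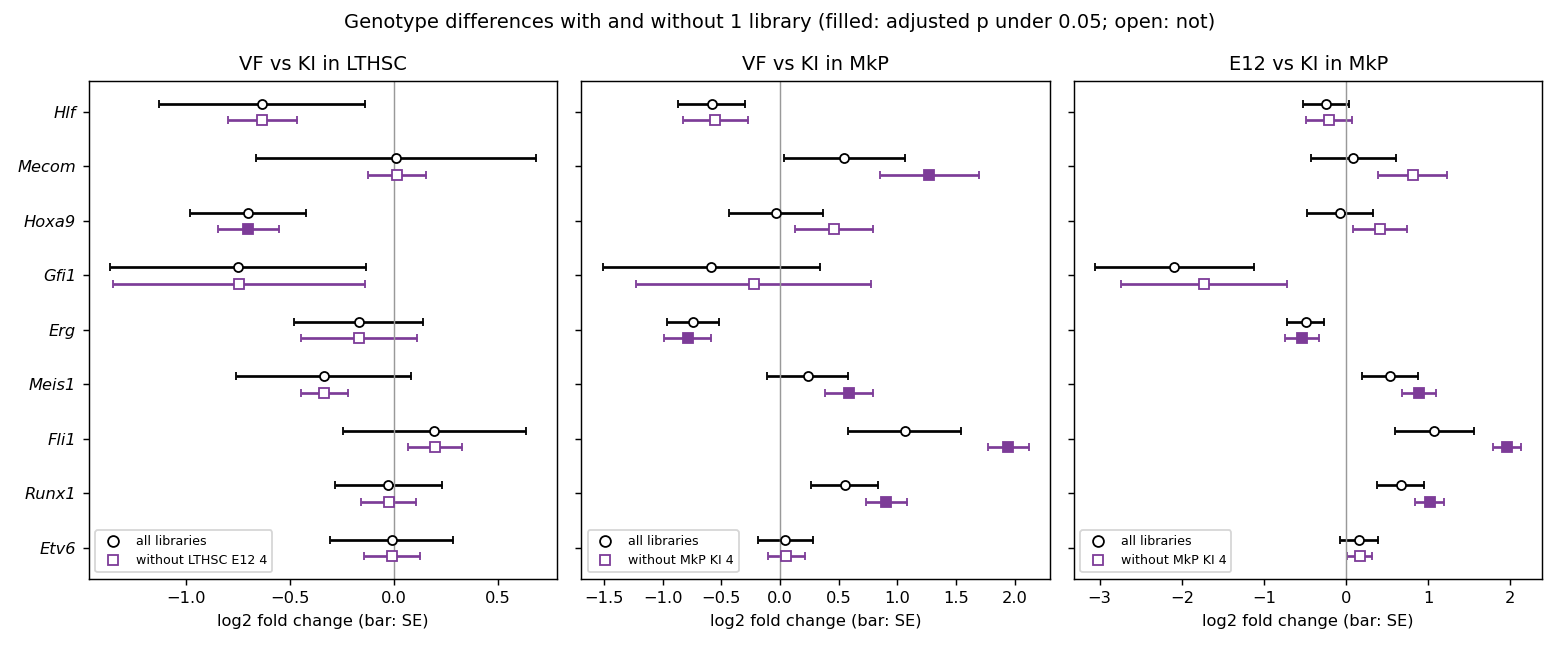
Log2 fold change of each factor (horizontal; bars are the standard error) in 3 comparisons with KI, namely of VF LTHSC, VF MkP and E12 MkP, with all libraries (circles) and without 1 library (squares: LTHSC E12 4 or MkP KI 4); filled symbols passed an adjusted p of 0.05. Leaving out LTHSC E12 4 shortens the bars in LTHSC at nearly the same values, whereas leaving out MkP KI 4 moves Fli1 to 1.95 in VF and 1.96 in E12.

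Whether a genotype difference changed between populations was tested as a difference of differences over all 24 libraries. None of the 9 factors passed in the 4 such tests, where 0% of all genes did for VF against KI in preMegE, and 0.0134% for VF against KI, 0.0335% for E12 against KI and 0% for VF against E12 in MkP, each minus LTHSC. At an unadjusted p under 0.05 by edgeR, 1 factor passed for VF against KI in preMegE minus LTHSC (Gfi1, 2.50, SE 1.09, adjusted p = 0.905; 4.45% of genes). For MkP minus LTHSC none passed in VF against KI (14.4% of genes), 2 in E12 against KI (24.4%) and 1 in VF against E12 (3.69%). The 2 for E12 against KI were Fli1, which differed by 1.42 (SE 0.67, adjusted p = 0.198), and Runx1, which differed by 0.96 (SE 0.38, adjusted p = 0.13). Without LTHSC E12 4 they were 0.99 (unadjusted p = 0.11, by edgeR) and 0.72 (unadjusted p = 0.0561). Without MkP KI 4, Fli1 differed by 2.30 (adjusted p = 0.00677) and Runx1 by 1.31 (adjusted p = 0.00974), where 29.5% of all genes passed, and Fli1 for VF against KI by 1.75 (adjusted p = 0.0456), where 17.1% passed. The gene of the lists above that passed in a genotype comparison was Pf4, at 115 ± 31.8 CPM in VF LTHSC and 18.7 ± 7.71 CPM in KI LTHSC (SD, n = 3 each; log2 2.62, SE 0.39, adjusted p = 0.0499 by edgeR). This call was lost without any 1 of the 6 VF and KI libraries (adjusted p of 0.0881 to 0.3), with RLE scaling (0.0522), without scaling factors (0.0884) and in 1 fit over all 24 libraries (0.433), at estimates of 2.38 to 3.02. It held in DESeq2 (2.59, adjusted p = 2.08e-08). By edgeR it held with VF and KI libraries alone (2.63, adjusted p = 0.00332) and without LTHSC E12 4 (2.63, 0.0135). The call also held without the 4 libraries of lowest TMM factor (2.62, 0.014) and with the replicate block (2.66, 7.24e-05).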

How the data were processed

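Raw counts per Entrez gene for 24 libraries, with gene length in bases, were used as deposited by the authors. Per the submitters' processing notes, STAR 2.7.0c and featureCounts of Subread 1.6.4 were used with mm10; annotation, strand setting and treatment of multi-mapping reads are not given in the sources used here. Annotated genes overlap the loci of 5 members (Meis1, Mecom, Fli1, Runx1 and Etv6), and without the strand setting their reads cannot be told apart. The 18 LTHSC and MkP columns match sample titles; 6 columns named MEP were taken as preMegE by genotype and number. The 16 rows without a symbol held at most 0.0132% of a library's counts and were left out. The report gives the range of library totals, of which MkP KI 5 had the lowest. Totals set the precision of low genes such as Gfi1.

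TMM factors (edgeR 4.0.16, R 4.3.3) were computed over all 24 libraries. After edgeR's default filter on low counts, genotypes were compared within each population over all its libraries, and populations and differences of differences over 24, with the quasi-likelihood test of edgeR, the p-values adjusted after Benjamini and Hochberg over all genes tested. The SE is the absolute log2 fold change over the square root of F. In the tables of alternatives a member's direction counts only where the estimate exceeds its SE. RPKM use the deposited length. The script was tested on simulated data. Alternatives were DESeq2 1.42.0, RLE scaling, no scaling factors (chosen after seeing the data), scaling within populations, no filter on low counts, 1 fit over all libraries, only the 2 groups compared, a replicate block (also, chosen after seeing the data, within the VF libraries of MkP and LTHSC), leaving out each library, and leaving out the 4 libraries of lowest TMM factor.

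The members and lists were chosen with earlier results of these data known. Named beside the 9 members were, per list and comparison, up to 4 genes past the threshold with the largest change, with Gata1, Gata2 and Gfi1b free to be named. Runx2 was named after its values were seen, and 2 genes that the rule names are not reported here. Likeness used genes with a mean of at least 10 CPM in a group, with a prior count of 2, without predicted genes.

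No libraries were copies: over 24 within-group pairs the smallest chi-square per degree of freedom was 19.8. Deviations of same-numbered libraries correlated between -0.209 and 0.473 over 22 pairs, 7 of them over 0.1. For preMegE VF and KI all 3 pairs were over 0.1 (0.179 to 0.473), and the numbers were taken to pair these libraries; they were likewise over 0.1 for MkP VF and LTHSC VF (0.157 to 0.220).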

Additional observations from a re-analysis of the deposited data

How the results depend on the processing

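Counts of the 9 factors past the threshold moved as follows. VF against KI in LTHSC gave 0, but 2 with only the 2 groups compared, 2 with the replicate block (Hlf -0.65, adjusted p = 0.0342, and Hoxa9 -0.72, adjusted p = 0.0289, by edgeR), and 1 without the 4 libraries of lowest TMM factor; leaving out each library gave 0 to 1. In MkP, VF against KI gave 0, but 2 in DESeq2 and 0 to 5 leaving out each library, and E12 against KI gave 0, but 1 in DESeq2 and 0 to 4. MkP against preMegE gave 4, and 1 without scaling factors, 3 without the filter on low counts, 5 in DESeq2, 3 to 5 leaving out each library and 6 without the 4 libraries of lowest TMM factor. For MkP minus LTHSC, leaving out each library gave 0 to 1 for VF against KI and 0 to 2 for E12 against KI. On leaving out each library, the nonzero values came without LTHSC E12 4 in LTHSC and without MkP KI 4 in MkP. Within LTHSC the numbers 4 and 11 occur only in E12, so with the replicate block these libraries add nothing to the spread. The cause of the other changes was not tested.

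Of 1639 recomputed values of the factors, 1559 kept direction and side of the threshold, 41 lost and 31 gained the threshold, and 8 reversed, none of them past it. Gfi1 in VF against KI LTHSC ran from -1.17 to 0.11 on leaving out each library. Without the 4 libraries of lowest TMM factor, Mecom was -0.30 in VF and Meis1 -0.014 in E12 against KI in MkP, Hoxa9 was 0.13 in MkP against preMegE, and MkP minus LTHSC gave Fli1 -0.083 for VF, and Meis1 -0.010 and Mecom -0.32 for E12, against KI. Without scaling factors Erg was 0.045 in E12 against KI MkP. That setting moved the median of all genes by up to 0.61 (E12 against KI, MkP minus LTHSC), and RLE scaling by at most 0.14.

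Calls over all genes ran, in LTHSC, from 1 to 940 for VF against KI (12 as reported), 2 to 467 for E12 against KI (5) and 1 to 280 for VF against E12 (4), and in preMegE from 0 to 69 (2). In MkP (0 as reported in each) they ran from 0 to 6961 for VF against KI, to 7088 for E12 against KI and to 12 for VF against E12. MkP against preMegE gave 685 to 2708 (1129). Differences of differences gave 0 to 33 (0) for preMegE minus LTHSC, and for MkP minus LTHSC 0 to 2620 (2) for VF against KI, 0 to 4534 (5) for E12 against KI and 0 to 43 (0) for VF against E12. The replicate block could not be fitted over all 3 genotypes for MkP against LTHSC, nor for MkP against preMegE. Nor could it be fitted for VF or E12 against KI in MkP minus LTHSC, since the numbers do not connect these groups. The block was not run for VF against E12 or E12 against KI in LTHSC, nor for VF against KI or E12 in MkP. These groups share fewer than 2 numbers. Where the block was fitted, it changed no other call of the factors. Within the VF libraries alone, a fit chosen after seeing the data, MkP against LTHSC gave 7 factors both with the pairing as a block (42.3% of genes called) and without (41.6%). In LTHSC the numbers of VF and KI were not taken to pair the libraries: deviations correlated between -0.055 and 0.021, and 1 of 6 libraries correlated best with its own number.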
